A study of Mus musculus with 8 samples.

Results

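The genes described here are the nuclear-encoded subunits of the 5 oxidative phosphorylation complexes, measured by RNA-Seq in whole fetal ovaries. They were taken by symbol (*Nduf*, *Sdh*, *Uqcr*, *Cox4* to *Cox8* with a subunit letter, and *Atp5*) from the 25239 gene symbols with counts. Of 86 matching symbols, the 77 with at least 10 counts in at least 4 of the 8 libraries were members. By the start of the symbol alone, 36 were placed in complex I, 4 in complex II, 8 in complex III, 12 in complex IV and 17 in complex V. This put *Ndufa4* and *Ndufa4l2* with complex I by name, and the complex that holds their proteins was not checked. All 77 also passed the filter of the test. The rule used no difference between the genotypes, but the members were chosen with earlier results of these data known. The 9 symbols below the count minimum were *Cox6a2*, *Cox7b2*, *Cox8b*, *Cox8c*, *Ndufs5* and the pseudogenes *Ndufa11b*, *Ndufb4c*, *Cox7c-ps1* and *Ndufs5-ps*. Among these, *Ndufs5*, which encodes a complex I subunit, was listed at 0 in all libraries. The symbol rule does not take *Ndufab1*, *Cyc1*, *Cycs*, *Cox4i1*, *Cox4i2* or *Atpif1*, and the subunits encoded by mitochondrial DNA were not analysed here.

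All embryos were E14.5 females on a C57BL/6 background. The control group was *Bmpr1a fl/fl*, and the *Bmpr1a*-cKO group was *Bmpr1a fl/fl; Oct4-Cre Cre/WT*, in which the Cre is inducible and acts in germ cells, so that ovarian somatic cells keep the receptor gene. Dams of both groups had received 1 mg of 4-hydroxytamoxifen and 0.5 mg of progesterone at 9.5 dpc, at 10.5 dpc and again at 11.5 dpc, and the controls carried the floxed alleles without the Cre. Each group had 8 embryos, pooled as 2 ovary pairs per library into 4 libraries, and the litters (6 in all) were not assigned to libraries. BMPR1A is a type I receptor for bone morphogenetic proteins, and the comparison asked which transcripts of the fetal ovary change when germ cells lose it.

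Complexes I to IV form the respiratory chain of the inner mitochondrial membrane, which passes electrons from NADH and succinate to oxygen and pumps protons, and complex V uses the proton gradient to make ATP. The complexes are built from catalytic subunits, which carry the redox centres or the nucleotide sites, and from accessory subunits that stabilise them. The nuclear genes for both kinds are expressed in almost every cell, and in an ovary at this stage they are read from germ cells and somatic cells together. Less mRNA per cell and fewer cells of a type cannot be told apart in such libraries.

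The libraries held 8562961 to 15365052 counts, and the members took 0.566% to 0.664% of them. A gene with 0 counts could have had up to 3 counts, which is 0.189 to 0.358 CPM by library, for counting error only. Values are CPM, counts relative to the library size after TMM scaling. The log2 fold change (Log2FC, *Bmpr1a*-cKO over control), its SE and the FDR come from the quasi-likelihood test of edgeR over 14249 genes. *Bmpr1a* itself went from 218 ± 15.3 to 195 ± 10.5 CPM (SD, n = 4 each; Log2FC -0.16, FDR 0.0692 by edgeR), and as a count over the whole gene and the whole ovary it does not check the genotype labels. The summed CPM of 14 germ cell markers (854 to 1118 in control ovaries, and 863 to 1344 after the knockout) and of 10 pregranulosa cell markers showed both cell types of the fetal ovary. Germ cell markers went both ways at an FDR below 0.05. Of the 14, 5 were higher (35.7%, beside 17.3% of all genes tested) and 4 lower (28.6%, beside 12.5%). The pregranulosa sum was lower in *Bmpr1a*-cKO libraries without overlap (1129 to 1352 against 1396 to 1578 in control), and 9 of those 10 markers were lower at an FDR below 0.05, with *Foxl2* the first of them (118 to 79.4 CPM). Macrophage markers summed to 39.6 to 49.9 CPM in the controls, against 53.3 to 70.1 after the knockout, with 5 of the 8 tested higher, and 8 hepatocyte markers to 1.78 to 4.77 and 5.05 to 34.9 CPM, without overlap, with both of the tested ones (*Afp*, Log2FC 2.71, FDR 0.00205, and *Alb*, 2.60, FDR 0.0157) upregulated. Stroma, endothelium and striated muscle markers had none past the threshold by edgeR (0, 1 and 1 at an unadjusted p below 0.05, all lower), erythroid and mesonephros markers 1 each (lower), and 4 adult globin genes were listed at 0 in all libraries. The part of these shifts in the results below was not tested.

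Of the members past the threshold, 5 kept their change in 21 of 22 alternative analyses (*Atp5b*, *Atp5g1*, *Cox7b*, *Uqcrfs1* and *Uqcrc1*), and their promoters are shown so that the letters upstream of the members that rose can be read beside those of the one that fell. Each sequence is the 300 bases from 250 before to 50 after the RefSeq transcription start (GRCm38.p6), 5′ to 3′ on the strand of the gene, at chr10:128083057-128083356 (plus strand) for *Atp5b*, chr11:96075582-96075881 (minus) for *Atp5g1*, chrX:106015450-106015749 (plus) for *Cox7b*, chr13:30545267-30545566 (minus) for *Uqcrfs1* and chr9:108936398-108936697 (plus) for *Uqcrc1*. Capitals mark matches, on either strand, to the motifs of the factors NRF1 (GCGCATGCG), GABPA (CCGGAAGT) and YY1 (AAGATGGCG), known from promoters of respiratory chain genes, and to the CCAAT box (CCAAT).
Atp5b: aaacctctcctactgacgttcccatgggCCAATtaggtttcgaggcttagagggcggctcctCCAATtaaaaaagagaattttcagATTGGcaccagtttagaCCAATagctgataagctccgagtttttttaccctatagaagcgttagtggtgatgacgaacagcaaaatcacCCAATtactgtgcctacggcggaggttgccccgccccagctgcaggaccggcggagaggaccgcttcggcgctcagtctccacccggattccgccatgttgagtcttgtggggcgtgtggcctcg
Atp5g1: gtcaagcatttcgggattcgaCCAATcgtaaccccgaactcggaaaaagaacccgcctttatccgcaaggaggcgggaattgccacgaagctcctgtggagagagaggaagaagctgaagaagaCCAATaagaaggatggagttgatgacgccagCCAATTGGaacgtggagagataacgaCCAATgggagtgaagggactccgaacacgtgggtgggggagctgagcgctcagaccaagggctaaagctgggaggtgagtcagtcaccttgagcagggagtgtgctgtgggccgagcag
Cox7b: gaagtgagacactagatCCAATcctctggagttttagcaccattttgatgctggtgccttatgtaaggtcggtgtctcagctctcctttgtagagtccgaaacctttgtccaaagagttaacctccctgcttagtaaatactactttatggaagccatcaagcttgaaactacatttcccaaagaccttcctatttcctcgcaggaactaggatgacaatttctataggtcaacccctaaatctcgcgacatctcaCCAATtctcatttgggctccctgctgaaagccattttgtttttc
Uqcrfs1: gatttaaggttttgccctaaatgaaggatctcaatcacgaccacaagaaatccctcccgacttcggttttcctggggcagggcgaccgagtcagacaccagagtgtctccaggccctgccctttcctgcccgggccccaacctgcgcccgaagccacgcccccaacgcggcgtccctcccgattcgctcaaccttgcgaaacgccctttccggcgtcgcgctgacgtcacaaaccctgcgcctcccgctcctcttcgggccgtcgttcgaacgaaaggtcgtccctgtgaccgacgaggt
Uqcrc1: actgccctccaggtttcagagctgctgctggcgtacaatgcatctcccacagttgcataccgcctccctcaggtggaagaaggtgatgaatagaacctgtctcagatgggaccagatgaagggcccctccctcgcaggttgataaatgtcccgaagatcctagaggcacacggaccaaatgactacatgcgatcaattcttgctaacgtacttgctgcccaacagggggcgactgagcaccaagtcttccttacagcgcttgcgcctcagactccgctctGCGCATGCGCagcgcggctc
*Atp5b* and *Atp5g1* each had 5 CCAAT matches, *Cox7b* had 2, *Uqcrfs1* had no match to any of the 4 motifs, and *Uqcrc1* had overlapping NRF1 matches on both strands that begin 31 bases after the start and no CCAAT match. The GC content of the windows was 53.7%, 55.3%, 43.3%, 62.3% and 56.3% in the same order, beside a median of 52.7% over all promoters.

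RefSeq promoters were matched for 65 of the 77 members (70 starts). NRF1 matches were present in 8 of the 70 windows (11.4%), against 1.75% of all 32851 promoters of the same length. YY1 matches stood in 7 windows (10%, against 1.40%) and GABPA matches in 5 (7.14%, against 3.89%). The CCAAT box, a 5-letter motif added to the search after these promoters had been read, was in 30 windows (42.9%, against 37.4%). The 29 members with a CCAAT match had Log2FC of -0.19 to 0.56, with a median of 0.09. Of these 29, 4 were higher and 0 lower at an FDR below 0.05, beside 17.3% and 12.5% of all genes tested. A match is a description of the letters and not a bound site. The 8 members with an NRF1 match (*Atp5g2*, *Atp5k*, *Atp5l*, *Cox6a1*, *Ndufa8*, *Ndufa11*, *Uqcr11* and *Uqcrc1*) had Log2FC of -0.24 to 0.44, with only *Uqcrc1* past the FDR threshold. The regulators themselves were among 25 genes of mitochondrial biogenesis, a list written with earlier results of these data known. Of these, 24 were tested, and their shares are only a description. In *Bmpr1a*-cKO ovaries 9 of those (37.5%) were higher at an FDR below 0.05, beside 17.3% of all genes tested, and none was lower by edgeR, beside 12.5%, with 10 higher and 2 lower at an unadjusted p below 0.05 (the CPM of *Esrrb*, an orphan nuclear receptor that is also a pluripotency factor, rose from 12.02 ± 4.29 to 29.1 ± 4.26, that of the coactivator *Pprc1* from 102 ± 8.38 to 137 ± 4.49, that of the GABP subunit gene *Gabpb2* from 113 ± 2.42 to 137 ± 3.70, and that of the mitochondrial DNA packaging factor *Tfam* from 42.5 ± 3.001 to 54.5 ± 2.58; SD, n = 4).

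At an FDR below 0.05, 6 of 77 were higher in *Bmpr1a*-cKO ovaries (7.79%), where 17.3% of all genes tested were, and 3 were lower (3.90%), where 12.5% of all genes were. At an unadjusted p below 0.05 in the same edgeR test, 11 were higher and 5 lower. Of the 45 members with transcripts of up to 1000 bases 2.22% were higher and none was lower, against 12.9% and 10% of other short genes, and of the 32 longer members 15.6% were higher and 9.38% lower, against 17.7% and 12.8% of other long genes. The 6 higher members were *Cox7b*, *Atp5b*, *Uqcrfs1*, *Ndufb3*, *Atp5g1* and *Atp5a1*, and the 3 lower ones were *Uqcrc1*, *Sdhc* and *Uqcrc2*. Only *Cox7b* was a DEG (absolute Log2FC above 0.5 and FDR below 0.05), beside 6.11% of all genes upregulated and 4.06% downregulated by that definition. The median Log2FC of the members was 0.03, with a range of -0.38 (*Ndufa4l2*) to 0.56 (*Cox7b*), and that of all genes was -0.00. Of the members, 66 (85.7%) lay within 0.25 of no change, against 65.7% of all genes and 87.2% of 78 mitochondrial ribosomal protein genes. All 4 *Bmpr1a*-cKO libraries were above all 4 control libraries for 5 members and below them for 4, where this held for 16.1% and 11.7% of all genes tested. Of the 68 members that did not pass the threshold, 60 had a 95% interval within -0.5 to 0.5, so that a change of DEG size lay outside it, and the intervals of 8 reached further (*Atp5k*, *Atp5md*, *Cox7a1*, *Ndufa1*, *Ndufa2*, *Ndufa4l2*, *Ndufb10* and *Uqcrb*). Counts of members moved most with 2 libraries. Without *Bmpr1a*-cKO library 1, 16 members (20.8%) were higher, beside 19.4% of all genes, and 3 lower, beside 15.5%, with 3 DEGs. Without control library 2, 14 (18.2%) were higher, beside 17.0% of all genes, and 3 lower, beside 13.6%, with 3 DEGs. The median without control library 4 was -0.00, just on the other side of no change.

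**Figure D1:**
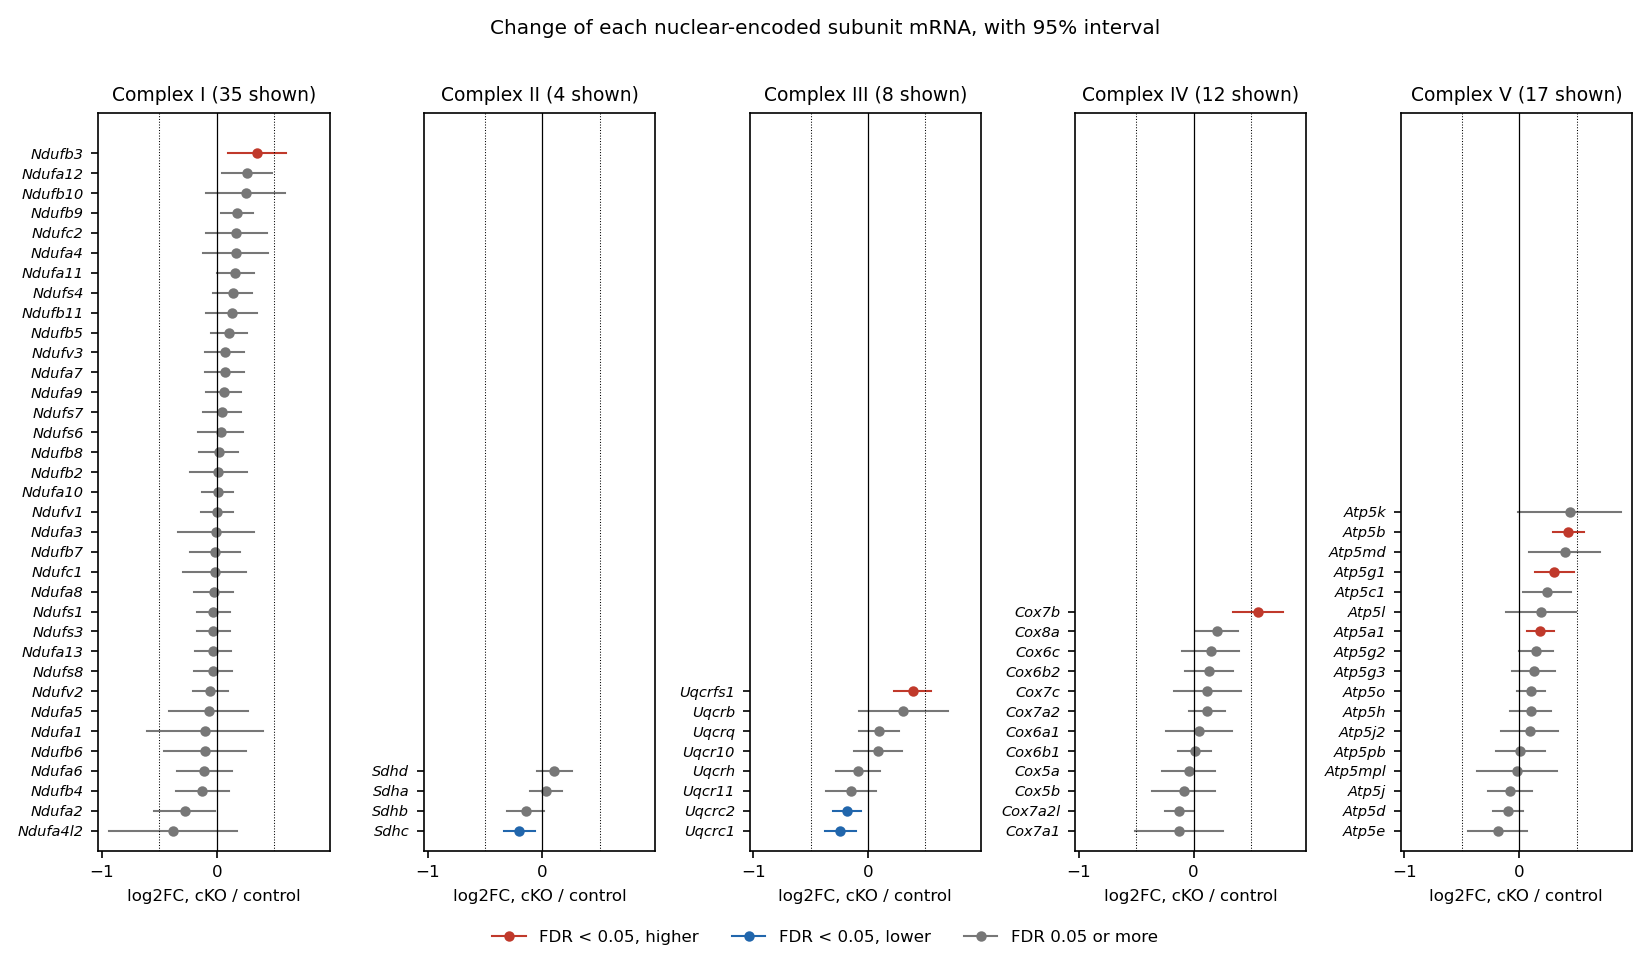
Log2FC (*Bmpr1a*-cKO over control) of 76 of the 77 members by complex, as points with 95% intervals from edgeR (n = 4 libraries per genotype); red marks an FDR below 0.05 with a higher level, blue one with a lower level, grey the others, and dotted lines stand at -0.5 and 0.5. Most points sit near 0, complex V has 13 of 17 above 0, and complex III holds the members that moved apart, with *Uqcrfs1* at 0.39 and *Uqcrc1* at -0.24.

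**Figure D2:**
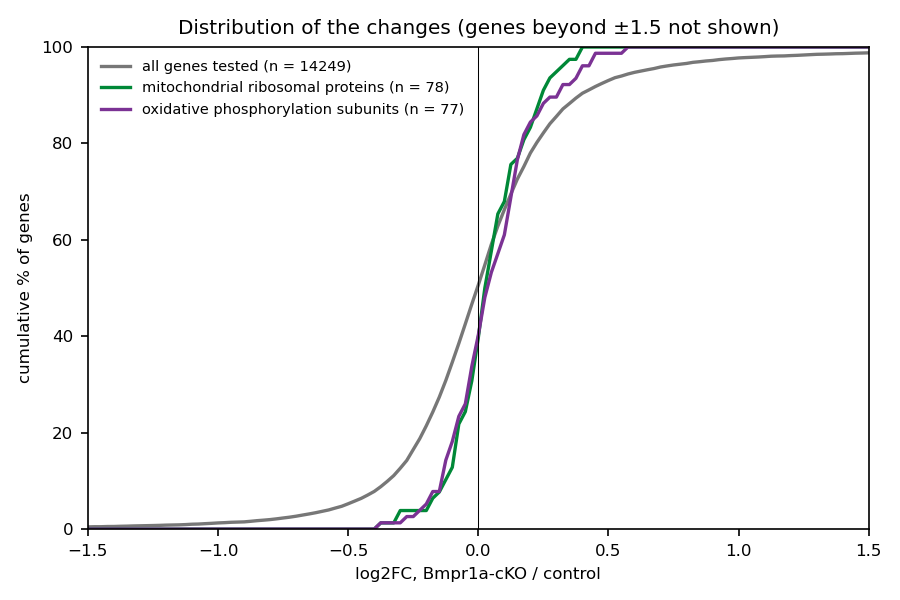
Cumulative share of genes (vertical axis, %) against Log2FC (horizontal axis) for the 77 members, 78 mitochondrial ribosomal protein genes and all 14249 genes tested. The member curve is steeper than that of all genes, with quartiles at -0.06 and 0.15 against -0.17 and 0.17, and runs close to that of the mitochondrial ribosomal proteins (-0.05 and 0.12).

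In complex III, which carries electrons from ubiquinol to cytochrome c, the catalytic Rieske iron-sulfur protein and the core proteins moved in opposite directions. *Uqcrfs1*, which encodes the Rieske protein (chr13:30540308-30545362), had 58.4, 61.1, 55.2 and 51.9 CPM in control libraries 1 to 4 and 64.9, 73.5, 78.7 and 78.9 CPM in *Bmpr1a*-cKO libraries 1 to 4. The lowest *Bmpr1a*-cKO library lay above the highest control, and the Log2FC was 0.39 (SE 0.076, FDR 0.00127 by edgeR). *Uqcrc1*, which encodes core protein 1 on the matrix side of the complex (chr9:108936633-108949623), had 200.04, 186, 208 and 173 CPM in control and 164, 158, 167 and 160 CPM in *Bmpr1a*-cKO libraries. These libraries did not overlap either, and *Uqcrc1* fell (Log2FC -0.24, SE 0.063, FDR 0.00948). *Uqcrc2*, the gene of core protein 2 (chr7:120635176-120659524), had 157, 163, 168 and 157 CPM in control and 133, 146, 142 and 147 CPM in *Bmpr1a*-cKO libraries. It fell too, without overlap (Log2FC -0.18, SE 0.056, FDR 0.0220), but its FDR was 0.0515 without control library 3 and 0.0569 without *Bmpr1a*-cKO library 3, and its exons overlap *Pdzd9* on the opposite strand.

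The count of *Uqcrfs1* divided by that of *Uqcrc1* within a library does not depend on how libraries are scaled. It was 0.292, 0.328, 0.265 and 0.2999 in control and 0.394, 0.466, 0.471 and 0.494 in *Bmpr1a*-cKO libraries, and the ranges were apart. The ratio to *Uqcrc2* went from 0.351 ± 0.0253 to 0.521 ± 0.0319 (SD, n = 4). These pairs were chosen after their values had been seen, and the ratios are given as a description, with no test. Of the other complex III members, *Uqcrh*, the hinge protein gene with the highest level per length of the complex (127 CPM per kb of transcript in control), had a Log2FC of -0.09 (FDR 0.519). *Uqcrb* had 19.8, 31.8, 21.1 and 20.6 CPM in control and 16.8, 29.7, 31.7 and 35.0 CPM in *Bmpr1a*-cKO libraries, so that both the second control and the first *Bmpr1a*-cKO library stood among the other genotype (Log2FC 0.31, FDR 0.231). Its FDR was 0.0469 without control library 2 and 0.0119 without *Bmpr1a*-cKO library 1, and it overlaps *Gm10767* on the opposite strand.

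Complex V, the ATP synthase, had 3 of its 17 members higher by edgeR (17.6%, beside 17.3% of all genes) and none lower (beside 12.5%). At an unadjusted p below 0.05 in the same test, 5 were higher and 0 lower, and the median Log2FC of the complex was 0.13. *Atp5b*, which encodes the catalytic beta subunit of the F1 head (chr10:128083273-128090391), had 824, 803, 872 and 742 CPM in control and 1043, 1092, 1127 and 1098 CPM in *Bmpr1a*-cKO libraries. It was the most abundant member per length (423 CPM per kb in control), its libraries were far apart, and it rose by a Log2FC of 0.43 (SE 0.062, FDR 0.000124 by edgeR). *Atp5a1*, the gene of the alpha subunit that alternates with beta in the head, had 480, 520, 491 and 469 CPM in control and 535, 566, 562 and 562 CPM in *Bmpr1a*-cKO libraries. These ranges were close but apart, and the Log2FC was 0.18 (SE 0.056, FDR 0.0226). The call of *Atp5a1* did not last when any of control libraries 1, 3 and 4 or *Bmpr1a*-cKO libraries 2, 3 and 4 was left out (FDR 0.0519 to 0.0798), and the gene overlaps *Haus1* on the opposite strand.

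The other 3 genes of the F1 head and central stalk did not pass the threshold (*Atp5c1*, gamma, Log2FC 0.24 and FDR 0.0767; *Atp5d*, delta, -0.10 and 0.256; *Atp5e*, epsilon, -0.19 and 0.267). Within libraries, the count of *Atp5b* over *Atp5a1* was 1.72, 1.54, 1.78 and 1.58 in control and 1.95, 1.93, 2.01 and 1.95 in *Bmpr1a*-cKO ovaries. The count of *Atp5b* over *Atp5d* went from 8.99 ± 0.499 to 13.0 ± 0.220 (SD, n = 4), and neither ratio overlapped between genotypes. Both ratios were picked after the values were known and carry no test.

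The c ring, which turns as protons pass through the membrane, is made of 1 protein encoded by 3 genes. *Atp5g1* (chr11:96068852-96075670) had 87.1, 82.1, 93.8 and 71.3 CPM in control and 94.3, 104, 107 and 107 CPM in *Bmpr1a*-cKO libraries. The ranges almost touched, at 93.8 and 94.3 CPM, and the Log2FC was 0.31 (SE 0.079, FDR 0.00843). *Atp5g2* (93.0 ± 4.53 to 103 ± 8.94 CPM, Log2FC 0.15, FDR 0.127) and *Atp5g3* (133 ± 15.5 to 145 ± 14.8 CPM, Log2FC 0.13, FDR 0.303) overlapped between genotypes. *Atp5g2* shares exon bases with *Mir688* on the same strand, and its FDR was 0.0169 without *Bmpr1a*-cKO library 1. Per kb of transcript, *Atp5g1* was the lowest of the 3 genes in control (17.7 CPM per kb, against 127 and 184), although its longest principal transcript, at 4715 bases, sets that value. The 4 peripheral stalk genes, which hold the head still, and the 5 genes of membrane accessory subunits had none past the threshold. Among the latter, *Atp5md*, which encodes a small membrane subunit, had 41.1, 58.3, 39.0 and 46.3 CPM in control and 41.1, 61.4, 72.2 and 66.8 CPM in *Bmpr1a*-cKO libraries (Log2FC 0.39, SE 0.146, FDR 0.0526). Control library 2 and *Bmpr1a*-cKO library 1 stood apart from the rest of their groups, its FDR was 0.0135 and 0.00143 without each of them, and it overlaps *Taf5* on the opposite strand.

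**Figure D3:**
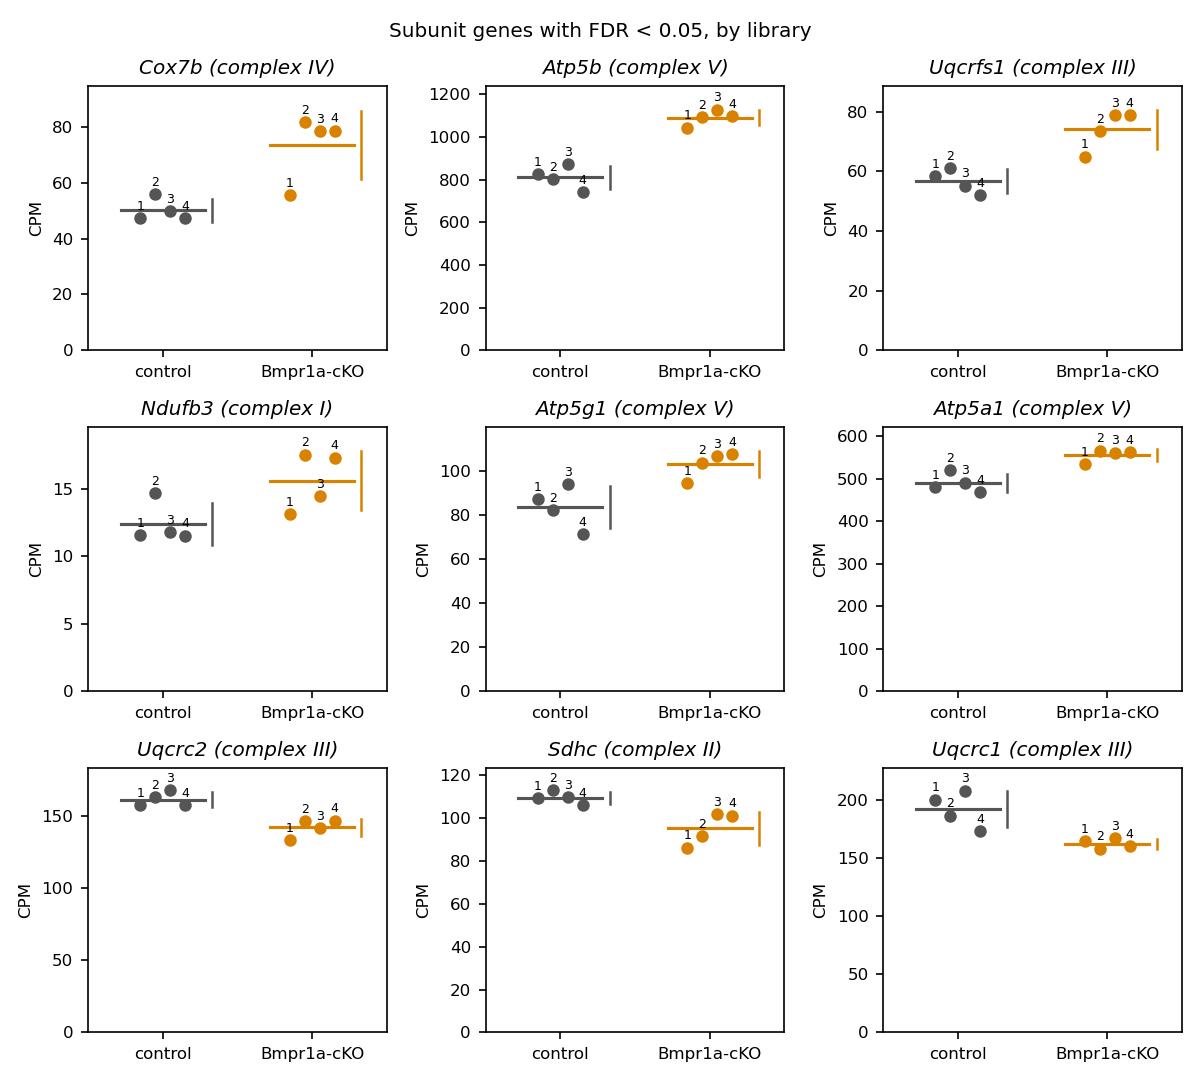
CPM (vertical axes, from 0) of the 9 members with an FDR below 0.05 in each library, numbered 1 to 4 within its genotype; horizontal lines are means and the vertical bars beside them ± 1 SD (n = 4). Libraries of the genotypes are apart in all but *Cox7b*, where *Bmpr1a*-cKO library 1 lies below the highest control, and *Ndufb3*, where *Bmpr1a*-cKO libraries 1 and 3 do.

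In complex IV, cytochrome c oxidase, 1 of 12 members was higher by edgeR (8.33%, beside 17.3% of all genes). None was lower (beside 12.5%), with 2 higher and 1 lower at an unadjusted p below 0.05 in the same test. *Cox7b* (chrX:106015700-106022450), which encodes a small accessory subunit, had 47.3, 55.9, 49.7 and 47.3 CPM in control and 55.6, 81.6, 78.3 and 78.6 CPM in *Bmpr1a*-cKO libraries. It was the member with the largest change (Log2FC 0.56, SE 0.103, FDR 0.000764 by edgeR). *Bmpr1a*-cKO library 1 lay just below the highest control, and the other 3 lay well above. The count of *Cox7b* over that of *Cox7c*, another accessory subunit gene, went from 0.383 ± 0.0264 to 0.524 ± 0.0451 (SD, n = 4), with no overlap, for a pair picked after its values were seen. *Cox7c* itself had the highest level per length in the complex (244 CPM per kb in control). It had 119, 155, 138 and 115 CPM in control and 94.5, 157, 162 and 156 CPM in *Bmpr1a*-cKO libraries (Log2FC 0.12, FDR 0.552), and its FDR was 0.0229 without *Bmpr1a*-cKO library 1. *Cox8a* had a Log2FC of 0.20 (61.4 ± 6.06 to 70.4 ± 7.14 CPM, FDR 0.0864), and its FDR was 0.0445 without control library 2 and 0.0197 without *Bmpr1a*-cKO library 1. *Cox7a2l*, placed in complex IV by its symbol, had 138, 145, 130 and 130 CPM in control and 124, 128, 121 and 125 CPM in *Bmpr1a*-cKO libraries. Its libraries did not overlap, but its FDR was 0.110 (Log2FC -0.13, SE 0.056). It passed the threshold with upper-quartile factors (FDR 0.0449), library size alone (0.0341) and offsets for transcript length (0.0384) or GC content (0.0205).

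In complex II, succinate dehydrogenase, which is also an enzyme of the citric acid cycle, 1 of 4 members was lower by edgeR. That is 25%, beside 12.5% of all genes, and none was higher, beside 17.3%. *Sdhc* (chr1:171127165-171150603), 1 of the 2 membrane anchor genes, had 109, 113, 110 and 106 CPM in control and 86.2, 91.5, 102 and 101 CPM in *Bmpr1a*-cKO libraries. All *Bmpr1a*-cKO libraries were below the controls, and *Sdhc* fell (Log2FC -0.20, SE 0.064, FDR 0.0273), with an FDR of 0.0574 without control library 1 and 0.0958 without *Bmpr1a*-cKO library 2. The iron-sulfur subunit gene *Sdhb* had a Log2FC of -0.15 (FDR 0.168), the flavoprotein gene *Sdha*, the most abundant of the 4 per length (76.4 CPM per kb in control), one of 0.03 (FDR 0.738), and the other anchor gene *Sdhd* one of 0.10 (FDR 0.315).

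Complex I, NADH dehydrogenase, had 1 of 36 members higher by edgeR (2.78%, beside 17.3% of all genes). It had none lower (beside 12.5%), and 3 higher and 1 lower at an unadjusted p below 0.05 in the same test. The 7 nuclear genes of its catalytic core, which hold the flavin and the iron-sulfur clusters, had Log2FC between -0.06 and 0.05. Among them, *Ndufv1* of the NADH-oxidizing arm had 113 CPM in both genotypes (Log2FC 0.00), *Ndufv2* and *Ndufs1* of the same arm had Log2FC of -0.06 and -0.03, and *Ndufs7* of the quinone-binding arm had one of 0.05. Of the other 29 members placed in complex I by symbol, *Ndufb3* (chr1:58586384-58595964), of the membrane arm, was higher. It had 11.6, 14.7, 11.8 and 11.5 CPM in control and 13.1, 17.6, 14.45 and 17.3 CPM in *Bmpr1a*-cKO libraries (Log2FC 0.35, SE 0.119, FDR 0.0362 by edgeR). The second control library lay above 2 of the *Bmpr1a*-cKO libraries. The call did not last without any of control libraries 1, 3 and 4 and *Bmpr1a*-cKO libraries 2 and 4 (FDR 0.0797 to 0.136).

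The next accessory subunits by FDR did not pass. *Ndufb9*, also of the membrane arm, had 54.8, 55.1, 54.6 and 52.2 CPM in control and 55.7, 58.7, 65.3 and 64.3 CPM in *Bmpr1a*-cKO libraries, which did not overlap (Log2FC 0.17, FDR 0.0620; 0.0174 without *Bmpr1a*-cKO library 1), and it shares exon bases with *Gm49356* on the same strand. *Ndufa12* had 26.1 ± 4.54 and 31.1 ± 1.56 CPM (Log2FC 0.26, FDR 0.0691; 0.00282 without control library 2). *Ndufa2* had 41.8 ± 5.78 and 34.0 ± 6.51 CPM (Log2FC -0.28, FDR 0.109; 0.0397 without control library 4) and overlaps *Tmco6* on the opposite strand. *Ndufa7* had the highest level per length of the complex (118 CPM per kb in control) and a Log2FC of 0.07 (FDR 0.575).

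Several subunits have alternative forms encoded by separate genes, some of them known from muscle, testis or low oxygen. The forms of muscle (*Cox6a2*, *Cox8b*) had at most 1 count per library. The exception was *Cox7a1*, at 4.93, 6.996, 5.99 and 5.62 CPM in control and 3.34, 5.95, 5.44 and 6.28 CPM in *Bmpr1a*-cKO libraries (14.97 CPM per kb in control, against 109 for the common form *Cox7a2* and 126 for *Cox7a2l*). Of the testis forms, *Cox6b2* was well measured, at 17.8, 20.01, 20.5 and 18.7 CPM in control and 17.4, 20.6, 21.8 and 23.9 CPM in *Bmpr1a*-cKO libraries, whereas *Cox6b1* had 85.8 ± 4.99 and 86.0 ± 5.69 CPM (139 CPM per kb in both, against 32.9 and 35.8 for *Cox6b2*). *Cox7b2* had 3, 5, 2 and 1 counts in control and 11, 5, 9 and 11 in *Bmpr1a*-cKO libraries, and *Cox8c* had 2 to 6 counts in all. The lung form *Cox4i2* had 0.698 ± 0.178 CPM in control, against 232 ± 14.46 for *Cox4i1*, and *Ndufa4l2*, induced by low oxygen, had 1.77 ± 0.462 CPM against 62.1 ± 13.5 for *Ndufa4*. *Ndufa4l2* overlaps *Shmt2* on the opposite strand.

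Within libraries, 8 log2 ratios of such forms (counts with 0.5 added) were compared between genotypes by an exact permutation test, two-sided. The 70 arrangements of 4 against 4 libraries allow a permutation p of 0.0286 at the smallest. A single ratio at that p would not pass 0.05 after adjustment over the 8. None reached 0.05 before adjustment. The nearest was *Atp5g1* over *Atp5g2*, which went from -0.16 ± 0.10 to 0.01 ± 0.08 (SD, n = 4; exact permutation p = 0.0571, 0.286 after Benjamini-Hochberg adjustment over the 8 ratios). The ratio of *Cox7a2* to *Cox7a2l* went from -0.92 ± 0.17 to -0.68 ± 0.08 (exact permutation p = 0.0857), that of *Cox6b2* to *Cox6b1* from -2.15 ± 0.12 to -2.04 ± 0.14 (exact permutation p = 0.286), and that of *Ndufa4l2* to *Ndufa4* from -5.12 ± 0.49 to -5.63 ± 0.24 (exact permutation p = 0.143). The other 4 ratios had p of 0.114 to 0.971 by the same exact test.

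**Figure D4:**
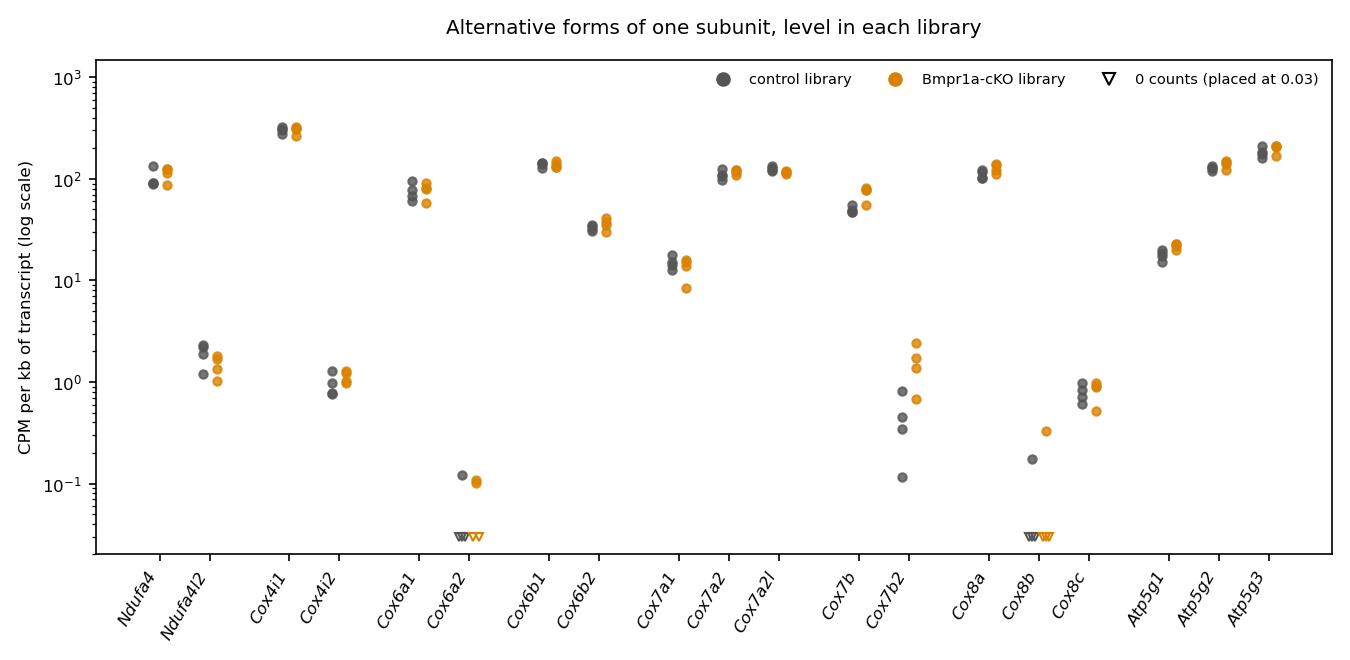
Level (CPM per kb of principal transcript, log scale) of each form of the subunits with alternative genes, one point per library (4 control, grey; 4 *Bmpr1a*-cKO, orange), with open triangles at the bottom for libraries with 0 counts. The common forms sit near or above 50 CPM per kb, apart from *Atp5g1*. Among the lower forms (control means), *Cox6b2* is at 32.9 against 139 for *Cox6b1*, *Cox7a1* at 14.97 and *Ndufa4l2* at 1.90. The muscle forms *Cox6a2* and *Cox8b* are at or near 0.

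The level of the members also differed between libraries of one genotype. Relative to the control mean, their median log2 level was -0.03, 0.14, -0.00 and -0.09 in control libraries 1 to 4 and -0.17, 0.07, 0.10 and 0.14 in *Bmpr1a*-cKO libraries 1 to 4, while the medians of all genes lay between -0.01 and 0.02. Control library 2 was thus as high as the higher *Bmpr1a*-cKO libraries, and *Bmpr1a*-cKO library 1 was the lowest of the 8. Summed over the members, control libraries held 5588 to 6418 CPM and *Bmpr1a*-cKO libraries 1 to 4 held 5781, 6595, 6706 and 6744 CPM. The shift was larger in the 45 members with a transcript of up to 1000 bases (0.21 in control library 2 and -0.25 in *Bmpr1a*-cKO library 1) than in the 32 longer ones (0.10 and -0.07). The 838 other genes of up to 1000 bases also had medians of 0.07 and -0.09 in those libraries, and the 13244 longer ones of -0.01 and 0.03. The median SE was 0.109 in the short members, of which 1 was higher and none lower, and 0.0721 in the long ones, of which 5 were higher and 3 lower. The part of transcript length in the results was not tested beyond an offset for it. Under that offset 6 members were higher, beside 16% of all genes, and 6 lower, beside 14.8%.

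**Figure D5:**
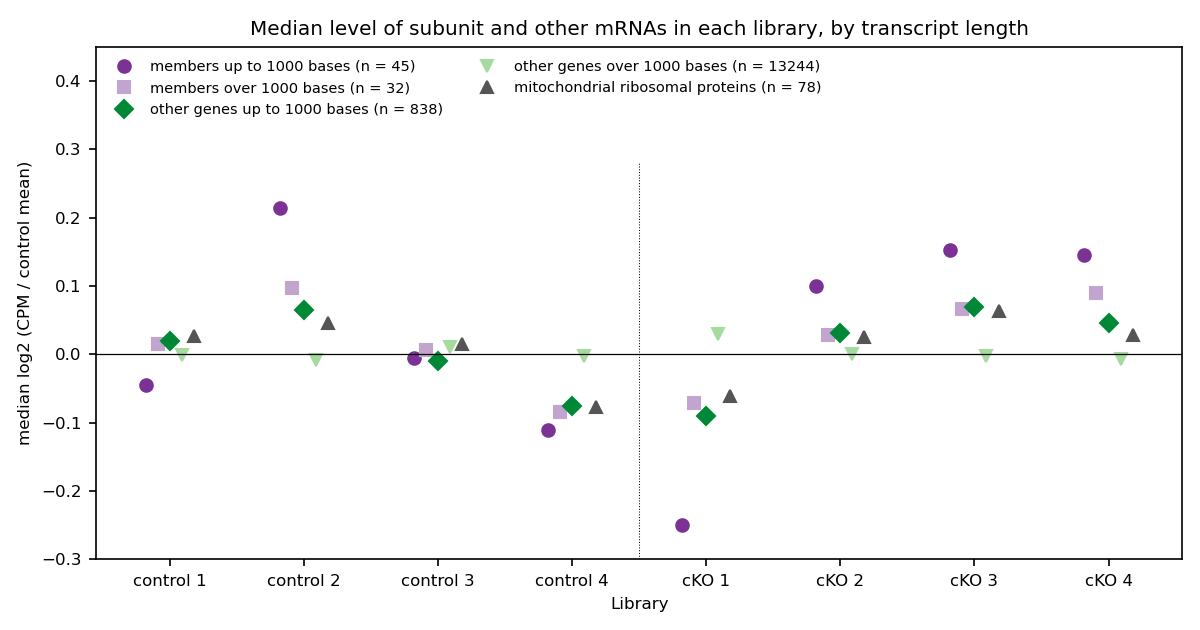
Median log2 of CPM over the control mean (vertical axis) in each of the 8 libraries (horizontal axis) for members with transcripts up to and over 1000 bases, other genes split at the same length, and mitochondrial ribosomal protein genes. Short members range from -0.25 in *Bmpr1a*-cKO library 1 to 0.21 in control library 2, and other genes over 1000 bases stay within 0.03 of 0.

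Genes that work with these complexes were also counted. Of 5 tested chain components outside the symbol rule, *Cycs*, the gene of somatic cytochrome c, was higher (23.5 ± 1.32 to 32.3 ± 2.30 CPM, Log2FC 0.47, FDR 0.000414), and *Cyc1*, *Atpif1*, *Ndufab1* and *Cox4i1* had Log2FC of -0.03 to 0.11. Of 46 tested assembly factors, 3 were higher and 4 lower, with a median Log2FC of -0.01. Both DEGs among them were complex I factors, *Ndufaf4* (14.8 ± 1.91 to 26.5 ± 4.11 CPM, Log2FC 0.86, FDR 7.40e-05) and *Ndufaf6* (7.18 ± 0.2996 to 10.4 ± 1.57 CPM, Log2FC 0.52, FDR 0.00583). *Cox10*, which makes the haem precursor for complex IV, was lower (27.3 ± 0.838 to 21.5 ± 1.19 CPM, Log2FC -0.35, FDR 0.00249), as was *Atpaf2*, an assembly factor of the F1 head (30.6 ± 2.44 to 23.8 ± 1.86 CPM, Log2FC -0.37, FDR 0.00408). Of 14 citric acid cycle genes, 4 were higher and 2 lower. Malate dehydrogenase (*Mdh2*, Log2FC 0.39, FDR 0.000624) and the succinyl-CoA ligase genes *Sucla2* (0.45, 0.000945), *Suclg1* (0.36, 0.00197) and *Suclg2* (0.23, 0.0126) rose. Of 78 mitochondrial ribosomal protein genes, 7 were higher (8.97%) and 3 lower (3.85%), with *Mrps2* first (34.3 ± 2.49 to 44.6 ± 1.47 CPM) and a median Log2FC of 0.02. The shares beside which these counts stand are 17.3% and 12.5% of all genes, and nothing particular to a list was tested.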

How the data were processed

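RNA-Seq reads came from strand-specific paired-end libraries of 4 control and 4 *Bmpr1a*-cKO ovary pools. The authors processed them, by the submitters' processing notes, with Trimmomatic 0.39, FastQC 0.11.9, STAR 2.5.2 on mm10 and edgeR, and deposited raw counts per gene symbol, made with STAR as well, for each library. The strand setting and the annotation of the counting are not given in the sources used here, so overlapping genes on either strand are named beside some of the values. Of others with a printed Log2FC, *Atp5d* overlaps *Cbarp*, and *Ndufs1* overlaps *Eef1b2* and *Ino80dos*, all on the opposite strand. A table of CPM made by the authors was not used.

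From the counts, edgeR 4.0.16 (R 4.3.3, limma 3.58.1) gave TMM-scaled CPM, filterByExpr with genotype as the group, and the quasi-likelihood F test of genotype (two-sided, Benjamini-Hochberg over 14249 genes). A DEG had an absolute Log2FC above 0.5 and an FDR below 0.05, and intervals are 95%. The labels number the replicate pools and call the controls littermates, but do not give the litter of each pool, and p-values measure the spread between these pools. Genes were matched to GENCODE vM21 (mm10), and levels per kb use the longest principal transcript. Sequences are from RefSeq (GRCm38.p6). The depth was 8562961 to 15365052 counts per library, and its part in the precision was not tested. The floor of 3 counts covers counting error only.

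Named members were every DEG, the 4 smallest FDRs and the highest level per kb in each complex, and alternative forms of a subunit. Of other lists, up to 4 genes by FDR were named, with *Cyc1*, *Atpif1*, *Ndufab1* and *Cox4i1* besides. Other members were named after their values had been seen. The members and lists were chosen with earlier results of these data known. The alternatives were the likelihood ratio test, limma-voom, DESeq2 1.42.0, other scalings and filters, loess offsets (span 0.3) for length or GC content, a block on replicate number, leaving out single libraries, and, added after seeing the data, a fit without *Rn45s*. In a simulation of this comparison with 14231 genes tested, 89 of 99 genes changed by a Log2FC of 1 and 69 of 99 changed by 0.5 passed the FDR threshold, with 20 calls among 14033 unchanged genes. Far fewer genes were changed there than passed the threshold in the data. The changed genes were drawn at random, and no shift shared within a library was simulated, so these rates need not hold for the members. A member counted among the 77 is not reported here by itself.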

Additional observations from a re-analysis of the deposited data

Results flagged for a closer look

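In each genotype, 4 libraries allow a check of whether the highest or lowest one stands apart from the others by Dixon's criterion at its 95% level. Of 64 groups checked (the named members and the summed members, by genotype), 9 did, and chance gives about 1 in 20. The flags fell mostly on the same 2 libraries. *Bmpr1a*-cKO library 1 stood below the other 3 for *Atp5a1* (535 CPM, others 562 to 566), *Atp5g3* (123, others 150.4 to 154), *Cox7b* (55.6, others 78.3 to 81.6), *Cox7c* (94.5, others 156 to 162) and the summed members (5781, others 6595 to 6744). Control library 2 stood above the other 3 controls for *Ndufa4* (82.3 CPM, others 54.4 to 56.0), *Ndufb3* (14.7, others 11.5 to 11.8) and *Uqcrb* (31.8, others 19.8 to 21.1). Control library 4 stood below the others for *Ndufb9* (52.2 CPM, others 54.6 to 55.1). *Bmpr1a*-cKO library 1 also had the fewest counts of the 8 (8562961). The part of depth in these values was not tested.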

How the results depend on the processing

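Other scalings moved the member median along with that of all genes, and the difference between those medians stayed at 0.0366 to 0.0391 (0.0384 with TMM). It ranged from 0.00702 when control library 4 was left out to 0.110 when control library 2 was, and was 0.108 when *Bmpr1a*-cKO library 1 was. Scaling to 14 germ cell markers, of which 5 were higher and 4 lower at an FDR below 0.05, moved the median of all genes to -0.17 and that of the members to -0.13. By edgeR it left 0 members higher and 1 lower (*Ndufa2*, Log2FC -0.48, FDR 0.0425) with 0 DEGs (1 higher and 6 lower at an unadjusted p below 0.05), beside 3.49% and 8.18% of all genes. The Log2FC then changed sign for 32 of the 77 members, none with an FDR below 0.05 in either fit, among them the named members *Atp5g2* (-0.0240), *Atp5g3* (-0.0456), *Cox6a1* (-0.13), *Cox6b1* (-0.16), *Cox6b2* (-0.0527), *Cox7a2* (-0.0450), *Cox7c* (-0.0693), *Ndufa4* (-0.0242), *Ndufa7* (-0.10), *Sdha* (-0.13) and *Sdhd* (-0.0707). With library size alone the member median was -0.0184 and that of all genes -0.0566. It gave 4 members higher (5.19%, beside 13.1% of all genes) and 4 lower (5.19%, beside 17.3%). Upper-quartile factors gave 4 and 4 as well, beside 14.7% and 15.4% of all genes. With library size alone *Cox6a1* (-0.00391), *Cox6b1* (-0.0425) and *Sdha* (-0.0184) were the named ones of 10 members that changed sign. *Cox6b1*, whose Log2FC was 0.01, was also at -0.000552 with DESeq2, -0.000944 with RLE factors, -0.0246 with upper-quartile factors, -0.0214 with the length offset and -0.0226 with the GC offset, and *Sdha* at -0.0164 with the GC offset. The length offset gave 6 higher members (7.79%, beside 16% of all genes) and 6 lower (7.79%, beside 14.8%). With the GC offset 9 were higher (11.7%, beside 16.4%) and 4 lower (5.19%, beside 15.2%).

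With 1 library left out, 4 to 16 members were higher, 2 to 4 lower and 1 to 3 DEGs, and the member median was -0.00293 to 0.100. The calls over all genes moved too. Without control library 4, 4 members were higher beside 13.1% of all genes, and 4 lower beside 9.91%. Without *Bmpr1a*-cKO library 1, 16 were higher beside 19.4%, and 3 lower beside 15.5%. Leaving out 1 library changed the sign of 2 to 14 members, none of them called, and among the named members of *Cox6a1* (Log2FC -0.0544 to 0.172), *Cox6b1* (-0.0408 to 0.0346), *Cox7a1* (-0.231 to 0.0139) and *Sdha* (-0.00175 to 0.0709). The labels tie the replicate numbers to no litter or day, and they were not taken as pairs (correlations of the deviations of same-numbered libraries 0.198, 0.161, 0.108 and -0.0871). *Bmpr1a*-cKO libraries 1 to 3 correlated best with the control of their own number and library 4 with control library 3, so that a hint of pairing remains for 3 of the 4 numbers. With the replicate number as a block, 10 members were higher (13%, beside 19.1% of all genes) and 3 lower (3.9%, beside 14.4%). *Atp5b*, *Atp5g1*, *Cox7b*, *Uqcrfs1* and *Uqcrc1* kept their calls in 21 of 22 alternatives, all but germ cell marker scaling, *Sdhc* and *Uqcrc2* in 19, and *Atp5a1* and *Ndufb3* in 13. The depth limits the low forms of subunits, and members of up to 1000 bases had larger SEs than longer ones.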

Other observations

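The testis forms below the count minimum belong in no comparison. *Cox7b2*, an alternative form of the subunit that *Cox7b* encodes, had 0.247, 0.443, 0.187 and 0.0631 CPM in control and 1.31, 0.372, 0.942 and 0.751 CPM in *Bmpr1a*-cKO libraries, and *Cox8c* had 0.281 to 0.443 and 0.238 to 0.446 CPM. Several of these values are near the floor of 3 counts, and *Cox7b2* overlapped between genotypes through *Bmpr1a*-cKO library 2.

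Reads of the 36 complex I members summed to 1605 to 1823 CPM in control and 1557 to 1833 CPM in *Bmpr1a*-cKO libraries, and those of complex II to 438 to 484 and 417 to 464 CPM. Complex III held 569 to 659 and 541 to 618 CPM, and complex IV 706 to 859 and 665 to 862 CPM. Complex V held 2270 to 2594 CPM in control and 2602 to 2985 CPM in *Bmpr1a*-cKO libraries, and was the only one of the 5 sums without overlap between the genotypes. The gap was small and came with *Atp5b*, since the sums of the other 16 members overlapped (1528 to 1791 and 1559 to 1874 CPM).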
